A study of Mus musculus with 2 samples.

Results

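The collagen genes of the mouse were examined for binding of the transcription factor GATA4 in whole adult mouse liver, labelled as healthy. They were taken as every protein-coding gene of GENCODE mouse release 21 whose symbol is Col, a number, a and a number, which gave 44 of 21755 genes once chromosome Y was left out. Binding had been mapped by chromatin immunoprecipitation and sequencing (ChIP-seq) with an antibody against GATA4. There was 1 group of 2 samples, labelled biological replicates 1 and 2. Both carried the same tissue and donor labels, so their spread may be purely technical. The labels record neither sex nor age of the animal, and they name no genotype, strain or treatment. Unless another list is named, values come from the authors' optimal peak list, which holds 24050 peaks on the chromosomes used here. It is thresholded on the irreproducible discovery rate, a measure of how well peak ranks repeat. A peak of this list need not be supported by both samples. Of all its peaks, 17.0% overlapped replicate 1's own thresholded list and 82.5% that of replicate 2. A gene was counted as having a peak when a summit, the position of highest signal in a peak, lay in the gene or within 10 kb of it. Such a position does not show that the peak acts on that gene. The peak lists hold no read counts, so the depth behind each peak is unknown.

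Collagens are secreted or membrane proteins of the extracellular matrix built from chains that wind into a triple helix. The fibrillar collagens, such as types I, III and V, assemble into the tensile fibrils that accumulate in liver scars, and in liver the type I and III chains are made mostly by hepatic stellate cells and portal fibroblasts. The basement membrane collagens are type IV, which polymerises into a sheet-like network, and types XV and XVIII, whose chains carry sugar side chains and anchor at that sheet. The sinusoids of healthy liver lack a continuous basement membrane, although type IV and XVIII collagen is present in the space between endothelium and hepatocytes. GATA4 binds the letters GATA preceded by A or T and followed by A or G, written WGATAR. In mouse liver it is known as a regulator of sinusoidal endothelial identity and of the quiescent state of stellate cells. A piece of whole liver mixes these cells with hepatocytes, so the cell type that carries a peak cannot be told from the lists.

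Peaks lay at a minority of collagen genes, and most of them lay at a few long ones. A summit was found for 19 of 44 collagen genes (43.2%), against 47.6% of all protein-coding genes. Long genes collect more summits, and collagen genes are long, with a median span of 114.4 kb against 17.4 kb for all genes. In 20 bins of gene span, the shares among the other protein-coding genes of the same bins summed to 27.6 of the 44. The number of genes with a peak was therefore below that of genes of like span. The 19 genes held 60 peaks, or 61 links between a gene and a peak because Col4a1 and Col4a2 share 1, while the mean numbers of peaks per gene in the same bins summed to 93.0. The widest bin runs from 188450 to 4434882 bp and holds 10 collagen genes, the longest of which, Col25a1, spans 468.4 kb. Its mean of 3.49 peaks per gene includes much longer genes, so the sums by span may be too high for these 10. Peak density over the gene bodies and their 10 kb flanks was 0.972 peaks per 100 kb for collagen genes and 1.42 for all genes. Among genes that span at least 100 kb, 14 of 26 collagen genes (53.8%) had a peak, against 68.5% of the other genes of that length. In that comparison the densities lay close together, at 1.04 peaks per 100 kb for the long collagen genes and 1.03 for the other long genes. The peaks were concentrated, since Col4a1, Col4a2, Col25a1 and Col15a1 held 9, 8, 7 and 6 of them.

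**Figure D1:**
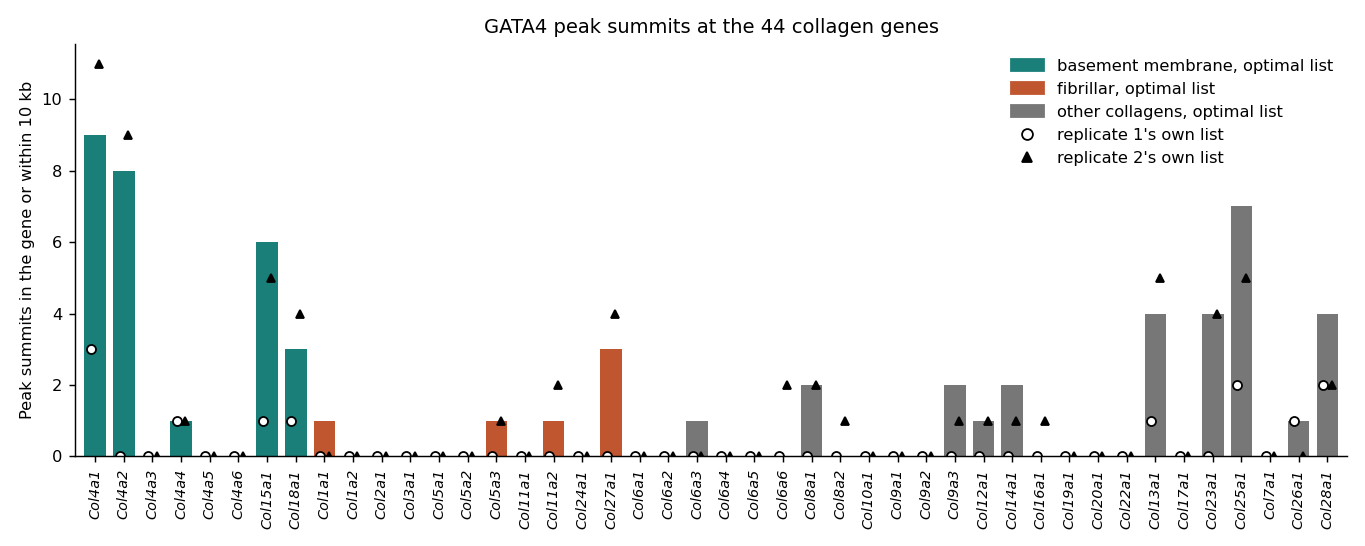
Number of GATA4 peak summits in each collagen gene or within 10 kb, with basement membrane, fibrillar and other collagens from left to right. Bars give the optimal list, open circles replicate 1's own list and triangles replicate 2's own list; the tallest bars are Col4a1 with 9 and Col4a2 with 8, and no fibrillar gene has a summit in replicate 1's list.

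The basement membrane and fibrillar collagens differed in how many peaks they held. Of the basement membrane genes 5 of 8 had a peak (62.5%), and of the fibrillar genes 4 of 11 (36.4%). Shares of other genes of like span summed to 5.43 genes for the basement membrane class and 6.73 for the fibrillar class. In numbers of peaks, the basement membrane genes had 27 links to 26 peaks, where genes of like span would sum to 21.2. The fibrillar genes had 6, where genes of like span would sum to 20.99. Both sums include genes of the widest bin, namely Col4a5 and Col4a6 in the basement membrane class and Col11a1 and Col24a1 in the fibrillar class. The density was 1.90 peaks per 100 kb at basement membrane genes and 0.474 at fibrillar genes. Genes are not replicates, so no test was made of this difference. The neighbours Col4a1 and Col4a2 made up most of it. Without this pair 3 of 6 basement membrane genes had a peak, with 10 peaks where genes of like span would sum to 16.3. Their density was 0.912 per 100 kb, which is above the fibrillar value and below the 1.42 of all genes. The density of the other genes of at least 100 kb was 1.03, between this value and the 1.90 of all 8 basement membrane genes. The basement membrane genes were also longer, with a median span of 135.8 kb against 45.02 kb for the fibrillar genes. All 8 basement membrane genes and 5 fibrillar genes (Col5a1, Col5a2, Col11a1, Col24a1 and Col27a1) span at least 100 kb, and of those 5 only Col27a1 had a peak.

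**Figure D2:**
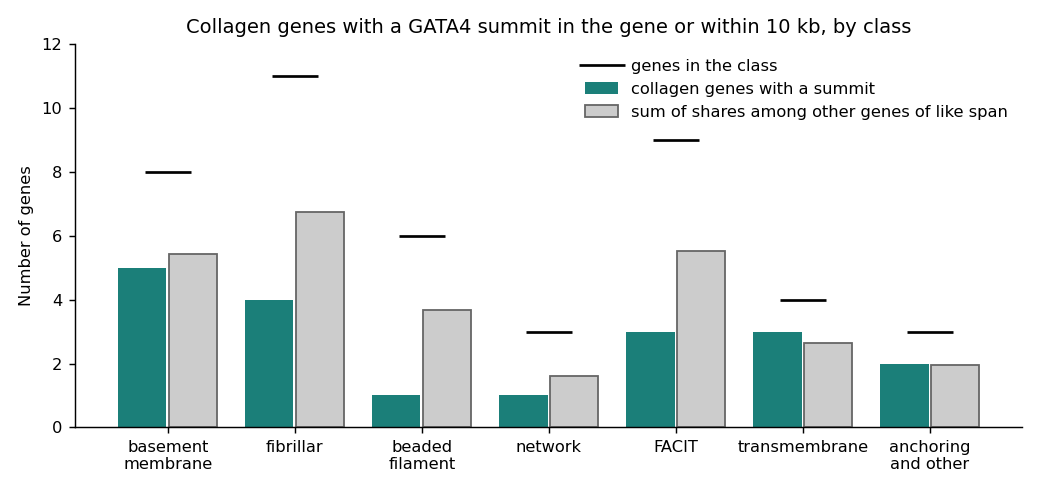
Number of collagen genes with a GATA4 summit in the gene or within 10 kb (dark bars) beside the sum of the shares among other genes of like span (light bars), for each structural class. Horizontal marks give the number of genes in the class; basement membrane genes stand at 5 against 5.43 and fibrillar genes at 4 against 6.73.

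The same order was seen in each replicate's own thresholded list, although these lists differ greatly in length, with 4287 peaks in replicate 1 and 26314 in replicate 2. In replicate 1's list 8 of 44 collagen genes had a summit (18.2%), against 11.4% of all genes and a sum of 9.54 genes by span. Those 8 included 4 of 8 basement membrane genes and 0 of 11 fibrillar genes, where genes of like span summed to 2.16 and 2.13. In replicate 2's list 19 of 44 collagen genes had a summit (43.2%), against 51.8% of all genes and a sum of 28.8 by span. Those 19 included 5 of 8 basement membrane and 3 of 11 fibrillar genes, where genes of like span summed to 5.60 and 7.10. The conservative list, which holds 9234 peaks on these chromosomes, gave 11 of 44 collagen genes (25.0%), against 21.9% of all genes and a sum of 16.2 by span. It had summits at 5 basement membrane genes and 1 fibrillar gene, Col27a1, where genes of like span summed to 3.54 and 3.76. The basement membrane count was thus above the sum by span in replicate 1's list and the conservative list. It was below that sum in the optimal list and replicate 2's list.

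Col15a1 held the strongest collagen peak of the list. The gene encodes the α1 chain of type XV collagen, a basement membrane collagen that carries glycosaminoglycan chains, and lies on the plus strand at chr4:47208161-47313167. Its strongest peak ranked 53 of 24050 with a signal of 218, where signal is the authors' peak score without a unit. The summit lay in intron 2, 31.2 kb from the gene's 5′ end, with introns counted in the transcript with the most exons. In the relaxed lists, which hold 300000 entries per replicate before thresholding, this peak ranked 31 in replicate 1 and 93 in replicate 2, and it was in both thresholded lists. It stood high in both replicates. A second group of peaks lay far downstream in the gene. Those ranked 5037, 6584 and 9843 lay in intron 28, between 85.7 and 87.5 kb from the 5′ end and between 5.81 and 7.62 kb past an internal start site, and the peak ranked 22260 lay in intron 24. These 4 were in replicate 2's list and not in replicate 1's. The peak ranked 8881, in intron 5, was in neither list.

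Col4a1 and Col4a2 encode the α1 and α2 chains of the type IV collagen found in nearly all basement membranes, and they are transcribed in opposite directions from a shared promoter. Col4a1 lies on the minus strand at chr8:11198423-11312826 and Col4a2 on the plus strand at chr8:11312805-11449287. None of their 16 peaks lay at that promoter, and the nearest summit was 8605 bp from the Col4a1 start site. At Col4a1 all 9 summits lay in introns 1 and 2. The peak ranked 542, in intron 2 and 54.0 kb from the 5′ end, had a signal of 132 and ranked 504 in replicate 1 and 631 in replicate 2. The peaks ranked 2293 (intron 2, 63.2 kb) and 3306 (intron 1, 40.4 kb) were also in both replicates' lists, with relaxed ranks of 805 and 2449 in replicate 1 and of 4103 and 4112 in replicate 2. These 3 are the Col4a1 peaks in both replicates' thresholded lists, and all 3 were also in the conservative list. The peak ranked 2245, in intron 1 at 33.4 kb, ranked 1632 in replicate 2 and 11990 in replicate 1. Of the replicates' own lists it was in that of replicate 2 only, and it was the fourth Col4a1 peak of the conservative list. The peaks ranked 8702, 9402 and 12037 were also in replicate 2's list only. Those ranked 20324 and 21209 were in neither, and the last of these is the one within 10 kb of both genes.

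At Col4a2 no peak was in replicate 1's list. The 7 peaks that it does not share with Col4a1 were all in replicate 2's list. The strongest, ranked 7189 with a signal of 49.0, lay in intron 11 at 93.1 kb from the 5′ end, and ranked 6491 in replicate 2 but 210756 in replicate 1. The peak ranked 9463 lay in intron 3 at 21.9 kb and was the only Col4a2 peak in the conservative list, with ranks of 7586 in replicate 1 and 10337 in replicate 2. The peaks ranked 11645, 16689, 16770 and 18365 lay in the same intron, and the peak ranked 12815 lay 1025 bp past the 3′ end of the gene. The peaks at Col4a2 thus stood lower in the list than the strongest ones at Col4a1.

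Col18a1 encodes the type XVIII chain, whose cleaved C-terminal end is endostatin, and lies on the minus strand at chr10:77052178-77166548. It held 3 peaks, all in intron 2. The peak ranked 1029, with a signal of 110.2, lay 48.0 kb from the 5′ end and 4588 bp upstream of an internal start site. It ranked 2870 in replicate 1 and 809 in replicate 2 and was in both thresholded lists. The peaks ranked 10809 and 20183 were in replicate 2's list only. Col4a4, which encodes a type IV chain known from the kidney glomerulus, held a single peak in intron 4, 32.0 kb from the 5′ end. It ranked 4571 in the optimal list, 4702 in replicate 1 and 5993 in replicate 2, and was in both lists. Its partner Col4a3, with which it shares a promoter region, and the X-linked pair Col4a5 and Col4a6 had no summit in the optimal list or in either replicate's list. Their highest relaxed ranks were 13606, 22134 and 108359 in replicate 1 and 24943, 170273 and 40717 in replicate 2.

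The sequences at the strongest basement membrane peaks show that a GATA motif was not present at each of them. The 4 windows below run 50 bp to each side of the summit on the plus strand of GRCm38 (mm10), read from the RefSeq sequence of that build. Capitals mark matches on either strand to WGATAR or to the ETS core MGGAAR, which is GGAA preceded by A or C and followed by A or G. The 2 may overlap. ETS factors include regulators of endothelial genes.
Col15a1 peak ranked 53, chr4:47239271-47239371: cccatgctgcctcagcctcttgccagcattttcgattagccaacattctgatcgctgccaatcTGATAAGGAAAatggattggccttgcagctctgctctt
Col4a1 peak ranked 542, chr8:11258732-11258832: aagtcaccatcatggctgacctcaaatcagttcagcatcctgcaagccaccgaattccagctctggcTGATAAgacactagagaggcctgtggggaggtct
Col18a1 peak ranked 1029, chr10:77118484-77118584: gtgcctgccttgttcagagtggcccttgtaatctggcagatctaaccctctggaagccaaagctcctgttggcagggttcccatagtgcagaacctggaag
Col4a1 peak ranked 2245, chr8:11279409-11279509: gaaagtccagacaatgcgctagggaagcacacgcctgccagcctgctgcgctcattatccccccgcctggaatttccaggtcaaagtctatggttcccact
In the Col15a1 window TGATAA and AGGAAA share a base and read as a single run of capitals. The Col4a1 window ranked 542 holds TGATAA and no ETS core. The Col18a1 window and the Col4a1 window ranked 2245 hold neither, and no match says only that these letters are not in this window.

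**Figure D3:**
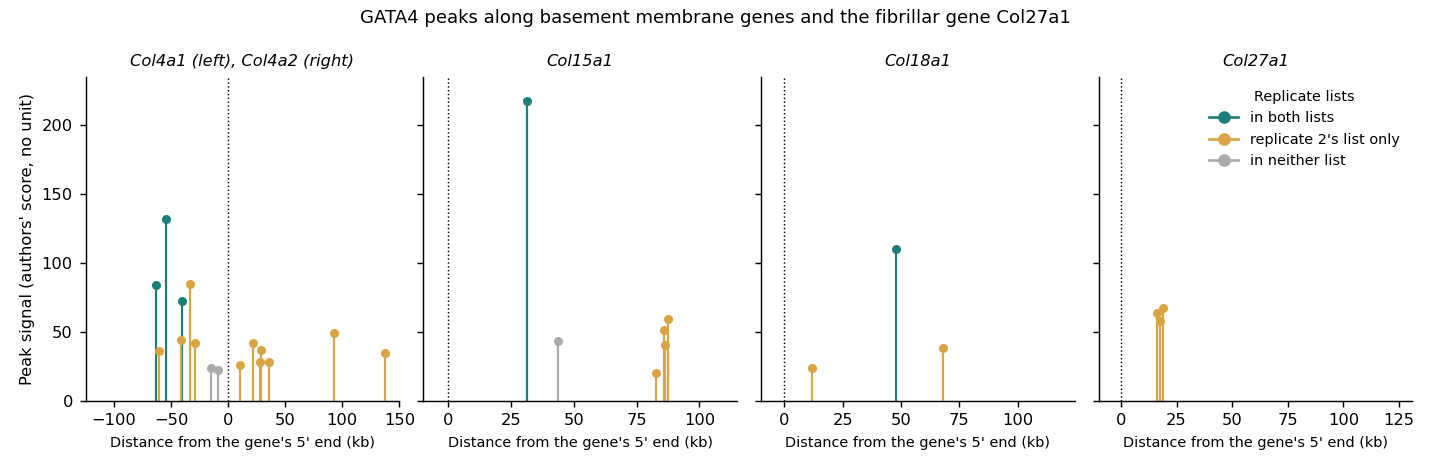
Signal of each GATA4 peak (vertical axis, the authors' score without a unit) against its distance in kb from the 5′ end of the gene, at Col4a1 (negative side) and Col4a2 (positive side), Col15a1, Col18a1 and Col27a1. Colours give the replicates' own lists that hold the peak; the dotted lines mark the 5′ ends, and the highest peak is that of Col15a1 at 31.2 kb with a signal of 218.

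Among the fibrillar genes, only Col27a1 had summits inside the gene. It encodes the chain of type XXVII collagen, a fibrillar collagen known from cartilage, and lies on the plus strand at chr4:63214004-63334991. Its 3 peaks lay close together in introns 3 and 4, between 16.4 and 18.7 kb from the 5′ end. The peak ranked 3877 had a signal of 67.4 and ranked 6354 in replicate 1 and 3800 in replicate 2. The peak ranked 4411 ranked 145628 in replicate 1 and 3250 in replicate 2, and the peak ranked 5308 ranked 28134 and 4347 in the same order. All 3 were in replicate 2's list and none in replicate 1's. Their windows, drawn on the plus strand with capitals as above, differ in what they hold, although they lie in a single cluster.
Col27a1 peak ranked 3877, chr4:63232696-63232796: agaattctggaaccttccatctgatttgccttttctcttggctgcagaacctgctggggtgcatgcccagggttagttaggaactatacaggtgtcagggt
Col27a1 peak ranked 4411, chr4:63230348-63230448: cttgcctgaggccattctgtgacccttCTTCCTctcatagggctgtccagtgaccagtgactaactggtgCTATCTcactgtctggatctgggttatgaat
Col27a1 peak ranked 5308, chr4:63231317-63231417: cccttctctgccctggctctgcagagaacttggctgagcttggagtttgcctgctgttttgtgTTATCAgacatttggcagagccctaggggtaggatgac
The first has no match, the second an ETS core and a GATA motif, and the third a GATA motif alone.

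The other fibrillar peaks lay outside the genes. Col1a1, which encodes the α1 chain of type I collagen, had a summit 5177 bp past its 3′ end that ranked 21251 with a signal of 22.1. That peak was in neither replicate's list. Col5a3, an accessory chain that joins type I fibrils, had a summit 9033 bp past its 3′ end, ranked 16432, in replicate 2's list only. Col11a2, a cartilage fibril chain, had a summit 7700 bp upstream that ranked 7349 and lay 75 bp from a start site of Slc39a7, a zinc transporter gene. It was in replicate 2's list only, and ranked 257720 in replicate 1. Col1a2 and Col3a1, which encode the α2 chain of type I and the chain of type III collagen, had no summit in the optimal list or in either replicate's list. Their highest relaxed ranks were 27533 and 29601 in replicate 1 and 33155 and 84181 in replicate 2. Col2a1, Col5a1, Col5a2, Col11a1 and Col24a1, chains of cartilage, accessory or developmental fibrils, likewise had none.

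Outside these classes 10 of 25 genes had a peak, where shares of other genes of like span summed to 15.4, and 15 of the 28 peaks lay at transmembrane collagens. These are membrane-spanning proteins with a collagenous ectodomain. Of the 4 transmembrane genes 3 had a peak, where genes of like span summed to 2.66 genes and 10.8 peaks. Their density was 1.46 peaks per 100 kb, against 1.42 for all genes and 1.03 for the other genes of at least 100 kb. Col25a1, known from brain and from the development of motor innervation, held 7 over its 468.4 kb, of which those ranked 23114 and 23373 overlap. Its peaks ranked 1519 and 2280 were in both replicates' lists, with ranks of 589 and 1018 in replicate 1 and 3041 and 3819 in replicate 2. Col13a1, known from the neuromuscular junction, held 4, of which the peak ranked 703 lay in intron 2, 50.04 kb from the 5′ end, and ranked 1823 in replicate 1 and 588 in replicate 2. The Col13a1 peak ranked 10352 lay 49 bp upstream of a Col13a1 start site and was the only collagen summit within 1 kb of a start site of its own gene. Col23a1 held 4, and the highest of them, ranked 1476, lay 763 bp past its 3′ end and 76 bp from a start site of Phykpl, which encodes an enzyme of amino acid breakdown. That peak ranked 751 in replicate 2 and 95947 in replicate 1. Col17a1, the hemidesmosome collagen, had none. The strongest 2 windows in these classes follow, on the plus strand of the same build.
Col13a1 peak ranked 703, chr10:61929020-61929120: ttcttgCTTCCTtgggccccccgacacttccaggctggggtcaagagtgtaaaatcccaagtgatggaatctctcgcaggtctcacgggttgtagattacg
Col23a1 peak ranked 1476, chr11:51584631-51584731: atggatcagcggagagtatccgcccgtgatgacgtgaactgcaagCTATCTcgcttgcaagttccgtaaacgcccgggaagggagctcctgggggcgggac
The Col13a1 window holds an ETS core and no GATA motif, and the Col23a1 window holds a GATA motif centred 2.5 bp from the summit.

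In the anchoring and other group Col28a1 held 4 peaks and Col26a1 held 1, and Col7a1, which forms the anchoring fibrils of skin, held none. These 2 of 3 genes stand beside a sum of 1.95 for genes of like span. The Col28a1 peaks ranked 7126 and 21843 overlap and were in both replicates' lists, ranked through the same entry of each relaxed list at 2780 in replicate 1 and 10227 in replicate 2. The Col28a1 peak ranked 10224 and the Col26a1 peak ranked 6567 were in replicate 1's list and not in replicate 2's, which held for no other collagen peak. The Col26a1 summit lay 5442 bp upstream of the gene and ranked 1951 in replicate 1 and 12663 in replicate 2. Among the FACIT collagens, which sit on the surface of fibrils, 3 of 9 had a peak (Col9a3, Col12a1 and Col14a1), where genes of like span summed to 5.53, and the highest rank was 11956 at Col14a1. The 2 Col9a3 peaks overlap and lay in Ogfr, the opioid growth factor receptor gene, 209 and 419 bp from its start site. Col9a1, Col9a2, Col16a1, Col19a1, Col20a1 and Col22a1 had none. Among the network-forming collagens Col8a1, known from vessel wall and eye, held 2 overlapping peaks, the higher at rank 14619, and Col8a2 and Col10a1 held none, where genes of like span summed to 1.60. Of the 6 beaded filament genes of type VI collagen only Col6a3 had a peak, where genes of like span summed to 3.66. It was ranked 19310, 7505 bp past the 3′ end and in neither replicate's list. Col6a1, Col6a2, Col6a4, Col6a5 and Col6a6 had none. Col6a6, Col8a2 and Col16a1 did have summits in replicate 2's list, with 2, 1 and 1.

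Collagen peaks lay inside genes and away from start sites. Of the 60 summits 50 lay in introns of a collagen gene, 10 of them in intron 1, and 0 in exons. The other summits lay 5 upstream and 5 downstream of a collagen gene. By nearest start site, 47 were closest to a collagen gene and 13 to another gene. A start site of their own within 1 kb of a summit was found for 1 of 44 collagen genes (2.27%), against 22.6% of all genes. At a span of at least 100 kb it was 1 of 26 collagen genes (3.85%), against 24.0% of the other genes. None of the basement membrane or fibrillar genes had one. With a promoter defined as within 1 kb of any protein-coding start site, 5 of 60 collagen peaks were promoter peaks (8.33%, 95% Wilson interval 3.61 to 18.1%). The share was 13.1% of peaks near the other long genes and 21.6% of all peaks. Of these 5 promoter peaks 4 lay at a start site of another gene. Introns held 83.3% of the collagen peaks, against 78.3% of peaks near other long genes and 40.4% of all peaks. By the share in introns, collagen peaks lay much as peaks near other long genes do. By own start sites the long genes differed, since 3.85% of the collagen genes had a summit there, against 24.0% of the others.

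Ranks of the collagen peaks spread over the whole list. They ran from 53 to 23475 with a median of 9432.5, against a median of 12025.5 for all peaks, and 16 of 60 were in the strongest 20% of the list. Basement membrane peaks ran from 53 to 22260 with a median of 9432.5. Fibrillar peaks ran from 3877 to 21251 with a median of 6328.5. The 3 highest of them form the single cluster in Col27a1, and the other 3, ranked 7349, 16432 and 21251, lay outside their genes. The median therefore says little about the fibrillar class. The 3 collagen peaks among the strongest 1000 belonged to Col15a1, Col4a1 and Col13a1. The 5 highest collagen peaks lay in or near basement membrane or transmembrane collagen genes, a cutoff set after seeing the ranks. The last of them, ranked 1476, lay outside Col23a1 and 76 bp from a start site of Phykpl, and it ranked 95947 in replicate 1.

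**Figure D4:**
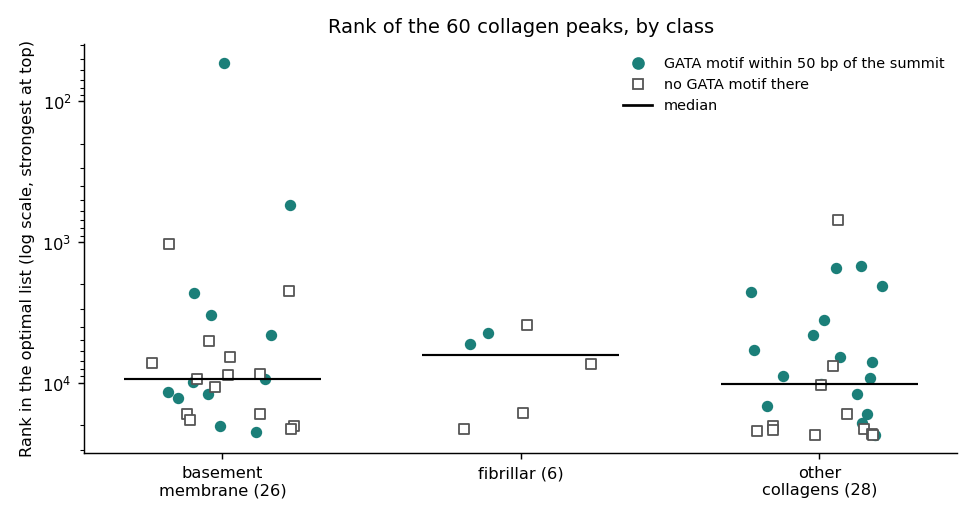
Rank of each of the 60 collagen peaks in the optimal list (log scale, strongest at top), for basement membrane (26), fibrillar (6) and other collagens (28). Filled circles have a WGATAR match within 50 bp of the summit and open squares none, lines are medians, and sideways scatter is only for display; the ranks of the 3 classes overlap.

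GATA and ETS motifs were about as frequent at collagen peaks as in the whole list. A WGATAR match within 50 bp of the summit was found in 31 of 60 collagen peaks (51.7%, 95% Wilson interval 39.3 to 63.8%), against 52.8% of all peaks and 56.0% of peaks near other genes of at least 100 kb. Windows of the same length centred 500 bp to each side held a match in 15.0% at collagen peaks and in 16.0% for all peaks. By class, the match was present in 12 of 26 basement membrane peaks (46.2%), 2 of 6 fibrillar peaks (33.3%) and 17 of 28 others (60.7%). With so few peaks the intervals of the classes overlap, and that of the fibrillar peaks runs from 9.68 to 70.0%. MGGAAR was found in 28 of 60 collagen peaks (46.7%, 34.6 to 59.1%), against 46.0% of all peaks, and in 25.0% of collagen flanks, against 25.6% of all flanks. By class it was in 11 of 26 basement membrane, 3 of 6 fibrillar and 14 of 28 other peaks. Both motifs were present in 11 collagen peaks (18.3%), against 23.2% of all peaks, and neither in 12 (20%), against 24.5%. More than 1 WGATAR match was found in 4 collagen peaks (6.67%), at Col4a4, Col18a1 and Col28a1, against 10.4% of all peaks. A match describes the letters and is not a measured site. The intervals cover counting error only.

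Support in both replicates was limited by the short list of replicate 1. Of the 60 collagen peaks 11 overlapped peaks of both replicates' lists (18.3%, 10.6 to 29.9%), against 16.3% of all peaks. Replicate 1's list overlapped 13 (21.7%), against 17.0% of all peaks, and replicate 2's list 47 (78.3%), against 82.5%. Only replicate 2's list held 36 and only replicate 1's held 2, and 11 were in neither. The basement membrane genes had 6 of 26 peaks in both lists, at Col15a1, Col18a1, Col4a4 and, with 3, Col4a1. The fibrillar genes had 0 of 6 (95% Wilson interval 0 to 39.0%). For Col1a1, Col6a3 and Col12a1 no peak of the optimal list overlapped either list. Replicate 2's list did hold 1 summit at Col12a1, at another position. The 11 peaks in both lists had a WGATAR match in 8 cases, and the 47 outside replicate 1's list in 21. The same shares over all peaks are not given here, so these counts describe the collagen peaks only and set them apart from no others. The conservative list held 26 of the 60 (43.3%), against 38.2% of all peaks.

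The replicates ranked the collagen peaks differently by base composition. The relaxed lists gave an entry in both replicates for 50 of the 60 peaks, and all 10 without an entry lacked it in replicate 1. Of the 12 collagen peaks with a GC content under 45% around the summit, 10 ranked higher in replicate 1 and 6 were in replicate 1's list. Overlapping peaks are counted singly here. Of 29 peaks with 45 to 55% GC, 7 were in replicate 1's list, and 6 of the 23 with both entries ranked higher in replicate 1. Of 19 peaks with at least 55% GC, 0 were in its list, and 1 of the 15 with both entries ranked higher there. Among all peaks with both entries, 55.002, 34.98 and 13.87% ranked higher in replicate 1 in these 3 ranges. Across the 50 peaks, GC content and the log10 ratio of the ranks had a Spearman's rho of 0.638, and across 17311 peaks of the whole list 0.401. These peaks share the same pair of libraries and are not independent. Among the collagen peaks, the overlapping pairs at Col28a1, Col8a1 and Col9a3 also share their relaxed entries, so the same ranks count for both peaks of a pair. Those of Col28a1 and Col8a1 are all among the 12 under 45% GC. In the whole list, replicate 1's list held 26.3, 19.1 and 6.01% of peaks in the same 3 ranges of GC. The basement membrane peaks had a median GC of 53.5% and the fibrillar peaks 55.4%. The part of GC content in the support by replicate 1 was not tested.

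**Figure D5:**
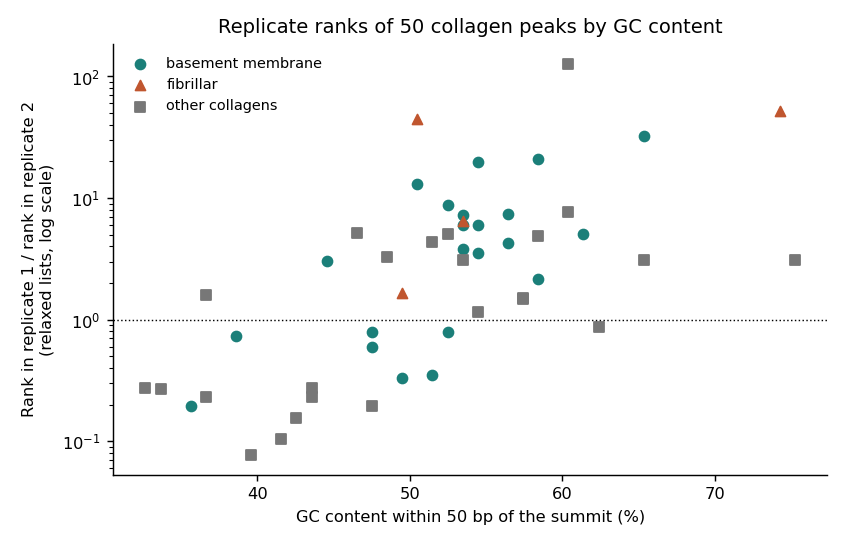
Ratio of the rank in replicate 1 to the rank in replicate 2 (relaxed lists, log scale) against the GC content within 50 bp of the summit (%), for the 50 collagen peaks with an entry in both lists. Points above the dotted line at 1 ranked higher in replicate 2; most points under 45% GC lie below the line and most at 55% or more lie above it.

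The 25 collagen genes with no peak in the optimal list were followed into the relaxed lists, which also hold background. Col2a1 and Col8a2 had no entry in replicate 1. With these placed last, the best rank of any summit in such a gene or within 10 kb had a median of 32161 in replicate 1 and 53042 in replicate 2. At a span of at least 100 kb, the medians were 18394.5 in replicate 1 and 42099 in replicate 2 for 12 collagen genes, against 24236 and 49958 for 777 other genes, of which 12 and 13 had no entry and were placed last. The highest were 8004 in replicate 1, at Col11a1, and 14536 in replicate 2, at Col8a2.

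Genes that act on collagen, or with it, also held peaks, in numbers near those of genes of like span. Of 16 laminin, nidogen, perlecan, agrin and SPARC genes, 11 had a summit, where genes of like span summed to 10.01. Nid1, which links laminin to type IV collagen, had a peak at rank 94, Lamb3, a laminin chain, one at 447, and Hspg2, which encodes perlecan, one at 1385 among 9. Of 13 genes of processing and crosslinking 8 had a summit, where genes of like span summed to 7.73. They included Adamts2, which cleaves the N-terminal propeptide of fibrillar collagens, with a peak at rank 1518, and Pxdn, which encodes the peroxidasin that forms sulfilimine crosslinks in type IV collagen, with 8 peaks and a highest rank of 2294. The highest peak at Loxl3, a lysyl oxidase, ranked 3513 and lay 79 bp from the start site of Htra2. None of Lox, Loxl1, Loxl2 and Loxl4 had a summit.

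Of 16 genes of collagen folding and modification 7 had a summit, where genes of like span summed to 8.26. The highest ranks were 826 for Mia3, which loads procollagen for export, 3053 for Colgalt2, a collagen galactosyltransferase, and 4049 for P3h2, a prolyl 3-hydroxylase. The Mia3 peak was intergenic, and its nearest start site was that of Taf1a, 10235 bp away. Serpinh1, which encodes the collagen chaperone HSP47, had none. Of 9 receptors 5 had a summit, where genes of like span summed to 5.50. Itga1, the α1 integrin that binds type IV collagen, held 11 with a highest rank of 953. The start site nearest to that highest peak was one of Pelo, 32409 bp away. The summit at Ddr2, a collagen receptor kinase, ranked 5986 and lay 50 bp from a start site of Hsd17b7. Of 8 collagenases and inhibitors 3 had a summit, where genes of like span summed to 3.82. They were Timp2 at rank 1021, Mmp14 at rank 2393 at a start site of Mrpl52, and Timp3 at rank 3352. The start site nearest to the Timp2 peak was one of Cep295nl, 5091 bp away. All 5 groups thus lay within 2 genes of the sum for genes of like span. For orientation in the tissue, summits lay at 7 of 7 hepatocyte markers and 8 of 8 sinusoidal endothelial markers, where genes of like span summed to 2.99 and 4.25. They lay at 3 of 8 stellate cell markers and 0 of 5 Kupffer cell markers, where genes of like span summed to 4.14 and 2.63. In replicate 1's list these 4 counts were 4 of 7, 5 of 8, 2 of 8 and 0 of 5, where 11.4% of all genes had a summit. Sums by span are not given for the markers in that list. The marker lists were chosen with earlier results of these data known, so the counts are not independent of them.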

How the data were processed

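GATA4 ChIP-seq peak lists on mm10 were used as deposited by the authors. Per the tables of files that came with each sample, the optimal and conservative lists and a relaxed list per replicate come from an earlier run, and each replicate's own thresholded list from a later one. The sources used here name neither the aligner nor the peak caller. Signal and the irreproducible discovery rate (IDR) score are the authors' scores. From the values, the IDR score is -log2 of the IDR multiplied by 125 with a ceiling of 1000, and the optimal list holds scores of at least 537. Control libraries and signal tracks were not used here. On unplaced contigs the optimal list has 33 further peaks, which were not used. Ranks follow the signal score within 1 list.

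Genes and start sites came from GENCODE mouse release 21 (basic) and sequence from RefSeq GRCm38.p6, with Python 3.11.15, numpy 2.4.6, pandas 2.3.3, scipy 1.17.1 and matplotlib 3.10.9. Gene shares were compared in 20 bins of span, by summing over members the share of non-collagen genes with a peak in the same bin. Each summit's 50 bp to either side were read for motifs on the 2 strands, and a peak counted as in a list at 1 shared base. The linking and motif code was tested on made-up data. No test between conditions is possible with 1 group. The members and gene lists were chosen with earlier results of these data known. Every collagen gene is named; peaks are given in full for basement membrane and fibrillar genes, the strongest 3 genes are named for each list of genes that act on or with collagen, except 1 that is not reported here, cell type markers are given as counts only, and windows are shown for the strongest 4, 3 and 2 peaks of the classes, leaving out those that overlap an annotated untranslated region. Alternatives were other lists, other links of peaks to genes, an IDR of 0.01, other motifs and windows and other rules of overlap. Settings without Col4a1 and Col4a2, with overlapping peaks counted once and with peaks of either replicate's list only were chosen after seeing the data.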

Additional observations from a re-analysis of the deposited data

How the results depend on the processing

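The order of the classes, more peaks at basement membrane than at fibrillar genes, held in each list and link tried. Under the main setting 19 collagen genes held 60 peaks. The conservative list gave 11 genes and 26 peaks, with 10 peaks at basement membrane genes and 2 peaks at 1 fibrillar gene. With each replicate's own list alone, collagen genes ranged from 8 to 19 and their peaks from 12 to 62, basement membrane genes from 4 to 5 and their peaks from 6 to 30, and fibrillar genes from 0 to 3 and their peaks from 0 to 7, with the lower value in replicate 1's list throughout. At an IDR of at most 0.01 (36.8% of all genes with a peak) there were 2 fibrillar genes. Counting gene bodies only (28.9% of all genes) left 1 fibrillar gene with 3 peaks. Within 5 kb of a start site (30.002% of all genes) there were 3 collagen genes with 4 peaks, 2 of each at basement membrane genes and 0 of each at fibrillar genes. Within 50 kb of the gene (68.4% of all genes) there were 104 collagen peaks and 12 fibrillar peaks. By nearest start site (43.1% of all genes) there were 2 fibrillar genes. Without Col4a1 and Col4a2 there were 3 basement membrane genes and 10 peaks. With overlapping peaks counted once there were 56 collagen peaks. The WGATAR share was 69.2% in the conservative list and from 51.6 to 75.0% in the replicates' lists. For AGATAA it was 28.3%, against 27.2% of all peaks. The MGGAAR share was 30.8% in the conservative list, from 41.7 to 46.8% in the replicates' lists, 66.7% within 100 bp and 13.3% for CMGGAAR. With ranked lists at any IDR, 26 collagen peaks were in both replicates. Apart from AGATAA, these motif shares and this count have no like share of all peaks beside them, so they describe collagen peaks only. The cause of these shifts was not tested. No paired analysis was possible because there is 1 group only. Without read numbers, a gene with no peak cannot be told from a site too weak for these lists.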
